A study of Mus musculus with 6 samples.

Results

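The genes described here are those of cholesterol synthesis and of its control by the transcription factor SREBP2 in RAW264.7 cells, a macrophage-like line from mouse. They were chosen by symbol, with earlier results of these data known. The list holds 20 enzymes from the thiolases to the last step of cholesterol synthesis, 6 genes of the SREBP machinery and the sterol carrier gene Stard4. These are 27 of the 49315 genes in the deposited count table. Wild-type RAW264.7 cells were given 4 μg/mL of SKI-II, a small molecule described earlier as an inhibitor of sphingosine kinase, or DMSO, the vehicle, for 24 h, and 3 RNA-seq libraries were made for each condition from poly(A)-selected RNA. The comparison asks how the compound changed transcript levels in these cells. The labels number the replicates without saying whether their cultures were separate. The study's methods treat the cells as in its qPCR assay, for which they state biological replicates. The p-values weigh the difference between the conditions against the spread between these libraries, whatever the source of that spread. If the cultures were not separate, they do not speak for new cultures.

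Cholesterol is built from acetyl-CoA in the mevalonate pathway, which also supplies the farnesyl and geranylgeranyl groups that anchor small GTPases in membranes. SREBP2 waits in the membrane of the endoplasmic reticulum (ER), bound to its escort SCAP. When ER cholesterol is low, SCAP carries it to the Golgi, where the site-1 and site-2 proteases (Mbtps1 and Mbtps2) free the part that enters the nucleus and activates the genes of the pathway, while INSIG proteins hold SCAP back when sterols are plentiful. Macrophages take up much cholesterol from engulfed cells and lipoproteins.

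The transcripts of the pathway fell broadly with SKI-II. Of the 27 genes, all of which had enough reads for the test, 21 fell, Ggps1 rose and 5 (Ebp, Sc5d, Scap, Insig2 and Mbtps2) were not called. Calls were made with edgeR's quasi-likelihood test where the adjusted p lay below 0.05. Among all 12274 genes tested, 19.7% fell and 18.4% rose, against 77.8% and 3.7% of the 27. A log2 fold change below -1 with that adjusted p was found for 18 of the 27 and for 7.44% of all genes, and one above 1 for 8.28% of all genes. The median log2 fold change of the 27 genes was -1.37, with a range of -2.50 to 0.54, and that of all genes tested was 0.0038. Every SKI-II library lay below every DMSO library for 21 of the 27 and for 25.5% of all genes, and above for Ggps1 and for 24.8% of all genes. The 27 genes together took 0.286% to 0.298% of the counts of a DMSO library and 0.134% to 0.144% of those of an SKI-II library. Because these are bulk libraries, fewer cells with a transcript and less transcript per cell cannot be told apart. The count of genes that fell was 19 to 20 when each library was left out in turn.

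**Figure D1:**
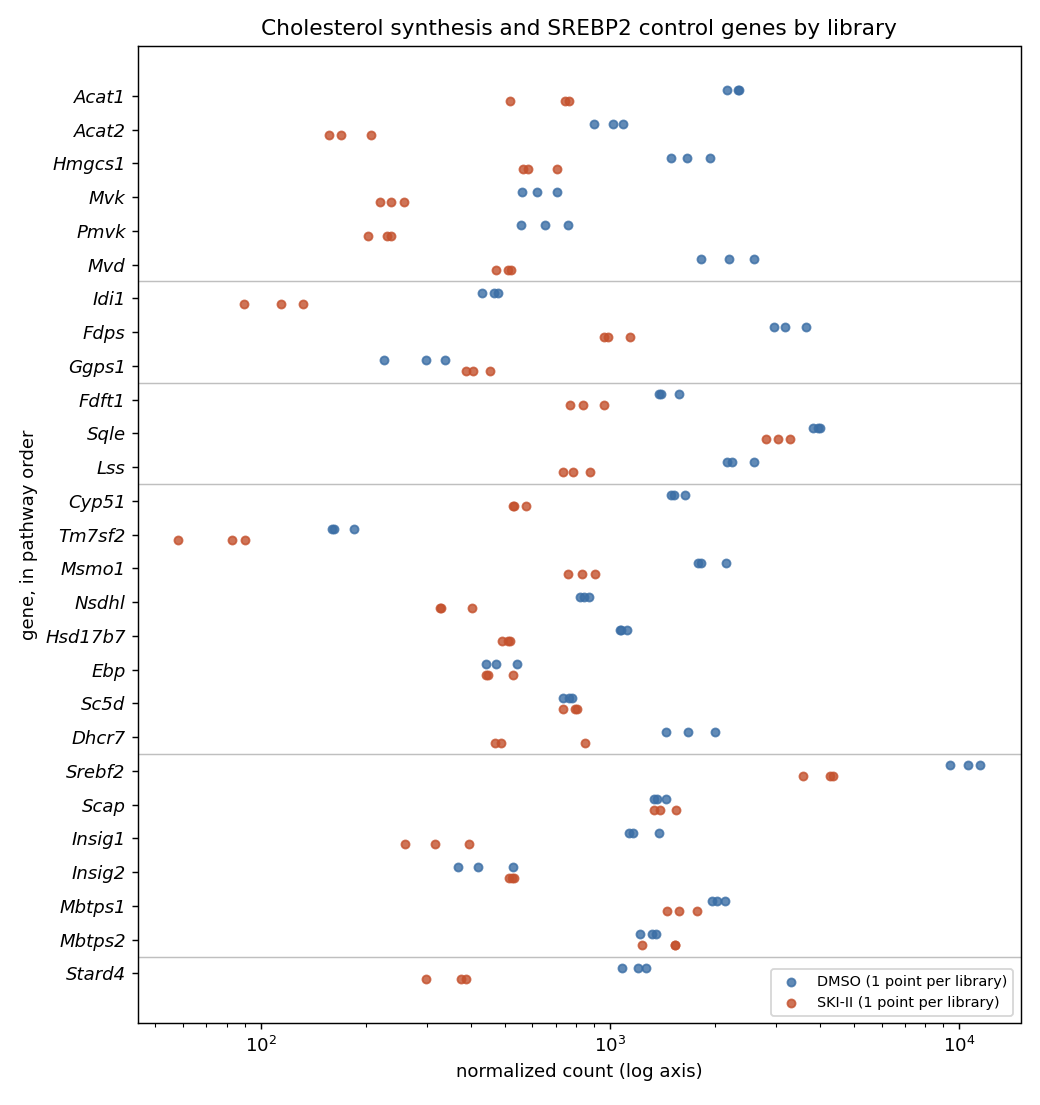
Normalized count (log axis) of each of the 27 genes, in pathway order, with 1 point per library for DMSO (blue) and SKI-II (orange); lines part the groups of genes. The colors are apart for 22 genes and overlap for Ebp, Sc5d, Scap, Insig2 and Mbtps2.

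**Figure D2:**
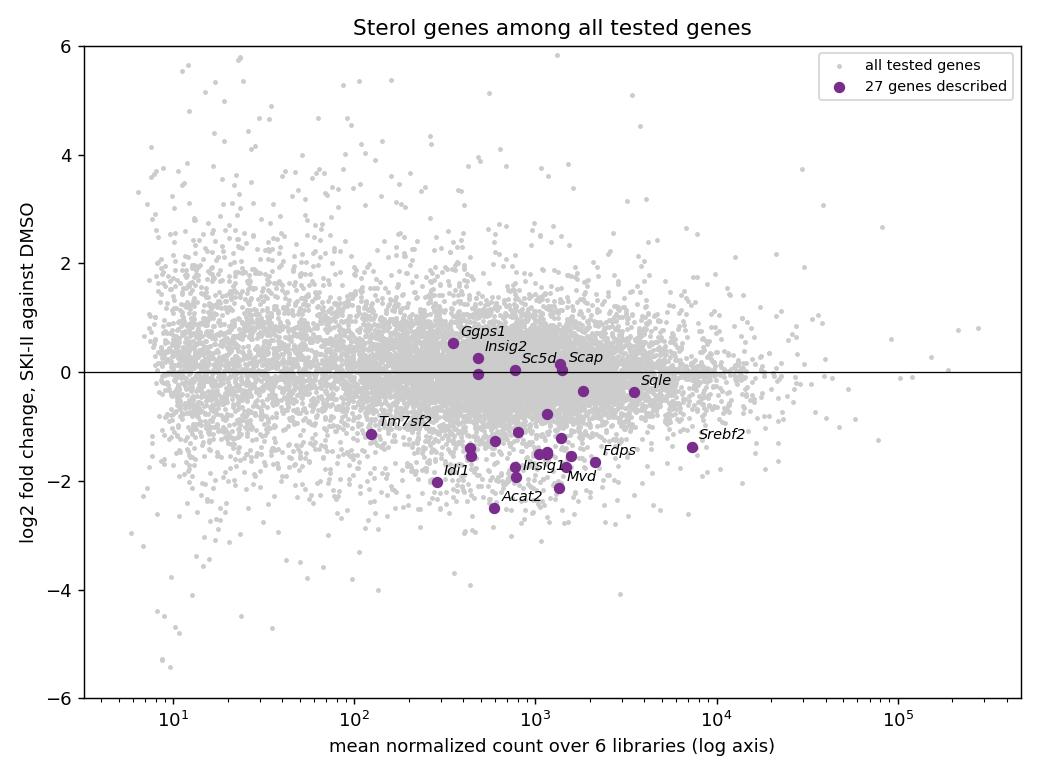
The log2 fold change (SKI-II against DMSO) of all 12274 genes tested against their mean normalized count over 6 libraries (log axis), with the 27 genes in purple; 25 genes lie beyond the axis. Most of the purple points lie between -1 and -2.50, at levels between those of Tm7sf2 and Srebf2.

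The libraries held 12495957 to 20050677 counts, and the common biological coefficient of variation, the spread of a gene between libraries of a group past counting error, was 17.5%. Values are normalized counts, which are counts brought to the mean library by TMM scaling. SKI-II replicate 2 was the lowest of its group for 18 of the 27 genes, and without it 20 genes fell. The cells carried macrophage markers, with 9 of 10 at 10 or more counts in every library, and their summed level was 138801 to 203269 in DMSO and 87110 to 123797 in SKI-II. Lyz2, the lysozyme gene and the highest of them, fell (log2 fold change -1.26 ± 0.343 (SE, n = 3), edgeR adjusted p = 0.0172), and over all 10 markers 4 fell, 2 rose and 4 were not called. All 4 epithelial markers were at 0, 6 fibroblast markers summed to at most 26 counts in a library, with Col1a1 the highest, and Cd3d, Cd3e and Cd3g were at 0 or 1 count. The highest T cell marker was Lck, which rose (0.97 ± 0.200 (SE, n = 3), edgeR adjusted p = 0.00412). The part of these marker changes in the sterol results was not tested.

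Promoters of these genes were read from RefSeq on GRCm38.p6 for the letters that SREBP2 and its partner factors are known to bind, since most of the genes fell together. A window runs from 250 bases before a start to 50 after it, 22 of the 27 genes had at least 1 window and there were 28 windows in all. The sterol regulatory element was searched on both strands as TCACNCCAC, the CCAAT box of NF-Y as CCAAT and the GC box of Sp1 as GGGCGG, and, as a choice made after seeing the data, a shorter element as CACNCCAC, which is contained in the longer one. The longer element was in 1 of the 28 windows (3.57%, against 1.24% of all 32851 windows), the shorter in 3 (10.7% against 6.24%), the CCAAT box in 18 (64.3% against 37.4%) and the GC box in 22 (78.6% against 35.7%). All windows are those of 27025 genes, more than the 12274 tested, so they include genes with few or no reads here. The 27 genes were all tested, and a comparison with windows of tested genes alone was not made. A match is a description of letters, not a binding site. The 3 windows that hold an element and that of Ebp, which was not called, are printed below from 250 bases before the start up to it, 5′ to 3′ on the gene's strand, with the sterol element and CCAAT letters of either strand in capitals. The reference is that of the C57BL/6J strain, whereas RAW264.7 comes from BALB/c.
Hmgcs1, chr13:119690101-119690350, plus strand: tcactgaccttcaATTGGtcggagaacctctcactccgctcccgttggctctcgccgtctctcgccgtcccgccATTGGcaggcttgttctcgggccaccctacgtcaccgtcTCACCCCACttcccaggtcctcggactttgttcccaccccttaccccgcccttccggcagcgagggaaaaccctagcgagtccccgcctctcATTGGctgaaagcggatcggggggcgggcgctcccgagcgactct
Acat2, chr17:12960726-12960975, minus strand: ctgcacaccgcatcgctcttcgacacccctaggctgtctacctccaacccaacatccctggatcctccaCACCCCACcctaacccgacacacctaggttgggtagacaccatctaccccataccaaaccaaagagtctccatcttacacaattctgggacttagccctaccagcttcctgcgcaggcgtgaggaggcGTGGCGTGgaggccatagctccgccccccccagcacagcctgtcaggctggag
Insig1, chr5:28071162-28071411, plus strand: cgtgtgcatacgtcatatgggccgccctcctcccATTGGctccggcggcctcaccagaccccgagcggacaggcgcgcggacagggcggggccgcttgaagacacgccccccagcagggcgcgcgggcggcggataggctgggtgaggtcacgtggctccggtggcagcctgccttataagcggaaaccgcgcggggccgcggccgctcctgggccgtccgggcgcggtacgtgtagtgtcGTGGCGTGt
Ebp, chrX:8193513-8193762, minus strand: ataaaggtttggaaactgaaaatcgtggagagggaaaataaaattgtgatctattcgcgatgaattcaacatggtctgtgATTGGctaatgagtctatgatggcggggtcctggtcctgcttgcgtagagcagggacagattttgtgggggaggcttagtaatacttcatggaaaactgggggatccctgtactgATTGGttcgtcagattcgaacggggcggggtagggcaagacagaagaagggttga
Hmgcs1 alone held the longer element, at -137 to -129 from its start, with a CCAAT box on the reverse strand at -176 to -172 and others at -237 to -233, at -45 to -41 and, past the printed bases, at 10 to 14. Acat2 held the shorter element at -181 to -174 and, reversed, at -53 to -46, with no CCAAT letters in its window. In Insig1 the shorter element lay reversed at -9 to -2, next to the start, and the CCAAT box lay at -216 to -212. Ebp held reversed CCAAT letters at -170 to -166 and at -55 to -51. CCAAT letters were thus not limited to genes that fell. They were in a window of 14 of the 16 genes that fell and had a window, and of 4 of the 6 others, which are Ebp, Sc5d, Insig2 and Ggps1.

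**Figure D3:**
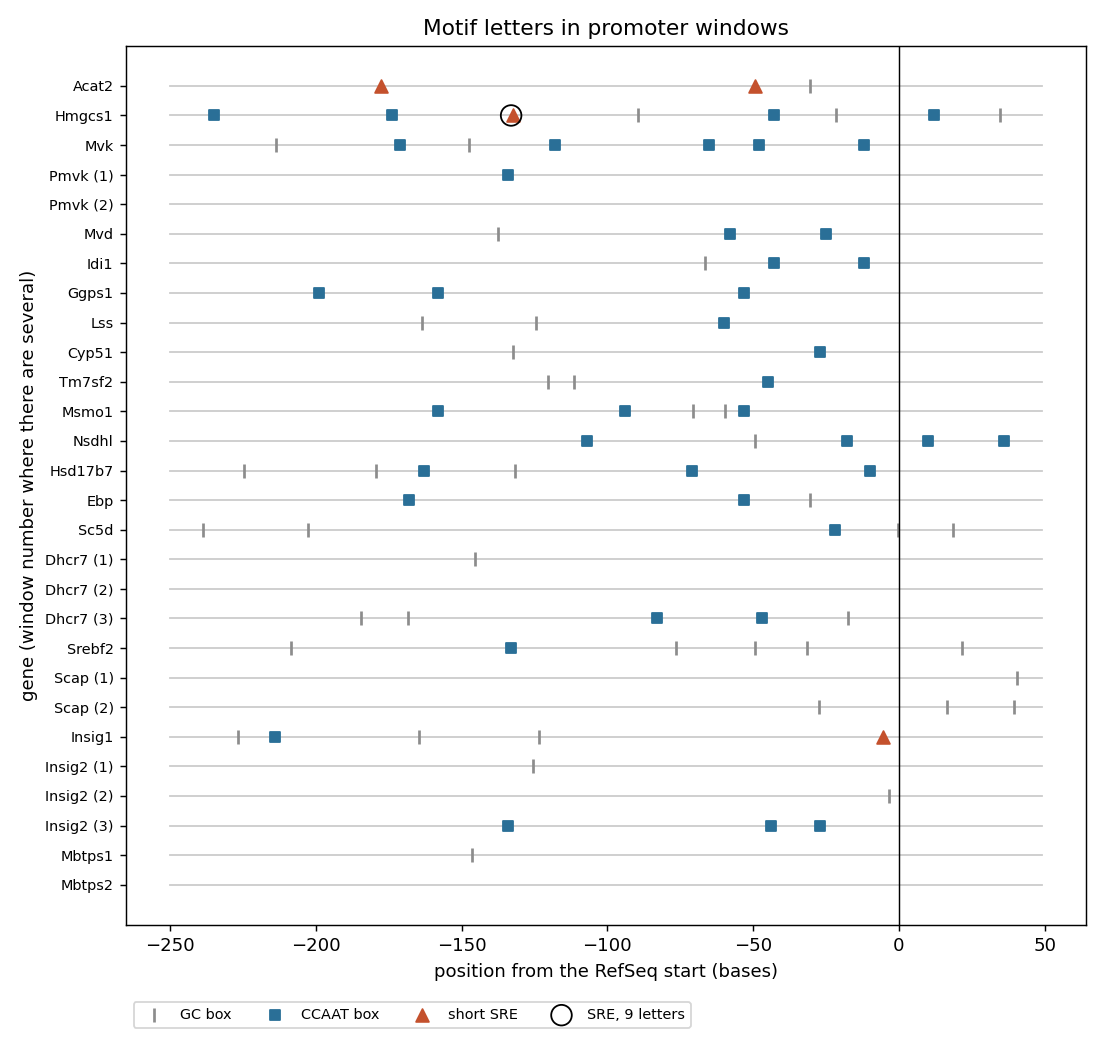
Places of the searched letters in the 28 promoter windows, by distance in bases from the RefSeq start (0), with grey bars for the GC box, blue squares for the CCAAT box, orange triangles for the shorter sterol element and a circle for the longer one. The circle stands in the Hmgcs1 window alone, and blue squares stand in windows of genes that fell and of genes that did not.

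Of the enzyme groups, the steps up to isopentenyl diphosphate had the lowest summed level relative to DMSO. All 6 genes fell, each with a log2 fold change below -1 and with a median of -1.65, and the sum stood at 28.7% of that in DMSO (2436 ± 43.8 against 8479 ± 286 normalized counts, SD, n = 3). The group includes the mitochondrial thiolase Acat1, which gave 675 and 2279.6 of these sums on average. Acat2, the cytosolic thiolase that joins 2 acetyl-CoA into the acetoacetyl-CoA of the pathway, had 1093, 1025 and 900.1 normalized counts with DMSO and 207, 157 and 170.3 with SKI-II. The groups were far apart, and its fall of 5.65-fold was the largest of the 27 genes (log2 fold change -2.50 ± 0.152 (SE, n = 3), edgeR adjusted p = 8.58e-06). By fold change from the lowest it held rank 91 among the 12274 genes tested, and by p-value rank 33. Acat2 lies at chr17:12942890-12960747 on GRCm38, beside its close copy Acat3, to which 2 to 9 counts per library were assigned, so few reads were given to the copy.

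Mvd, the decarboxylase that makes isopentenyl diphosphate, had 1828, 2199 and 2596 normalized counts with DMSO against 523, 473 and 512 with SKI-II. The lowest DMSO library stood well above the highest SKI-II library (log2 fold change -2.13 ± 0.146 (SE, n = 3), edgeR adjusted p = 1.28e-05). Hmgcs1, the cytosolic synthase that makes HMG-CoA and whose promoter holds the longer sterol element, had 1939.7, 1669 and 1496 normalized counts with DMSO and 705, 585 and 565 with SKI-II. It too showed no overlap, and it fell 2.75-fold (-1.46 ± 0.144 (SE, n = 3), edgeR adjusted p = 7.12e-05). The kinases that phosphorylate mevalonate in turn fell to a like extent, Mvk with a log2 fold change of -1.40 ± 0.150 and Pmvk with one of -1.55 ± 0.159 (SE, n = 3). Acat1 encodes the mitochondrial thiolase, which serves ketone body and isoleucine breakdown rather than sterol synthesis. It had 2323, 2166 and 2349.7 normalized counts with DMSO against 517, 744 and 765 with SKI-II, without overlap, and fell 3.37-fold (edgeR adjusted p = 4.32e-05).

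**Figure D4:**
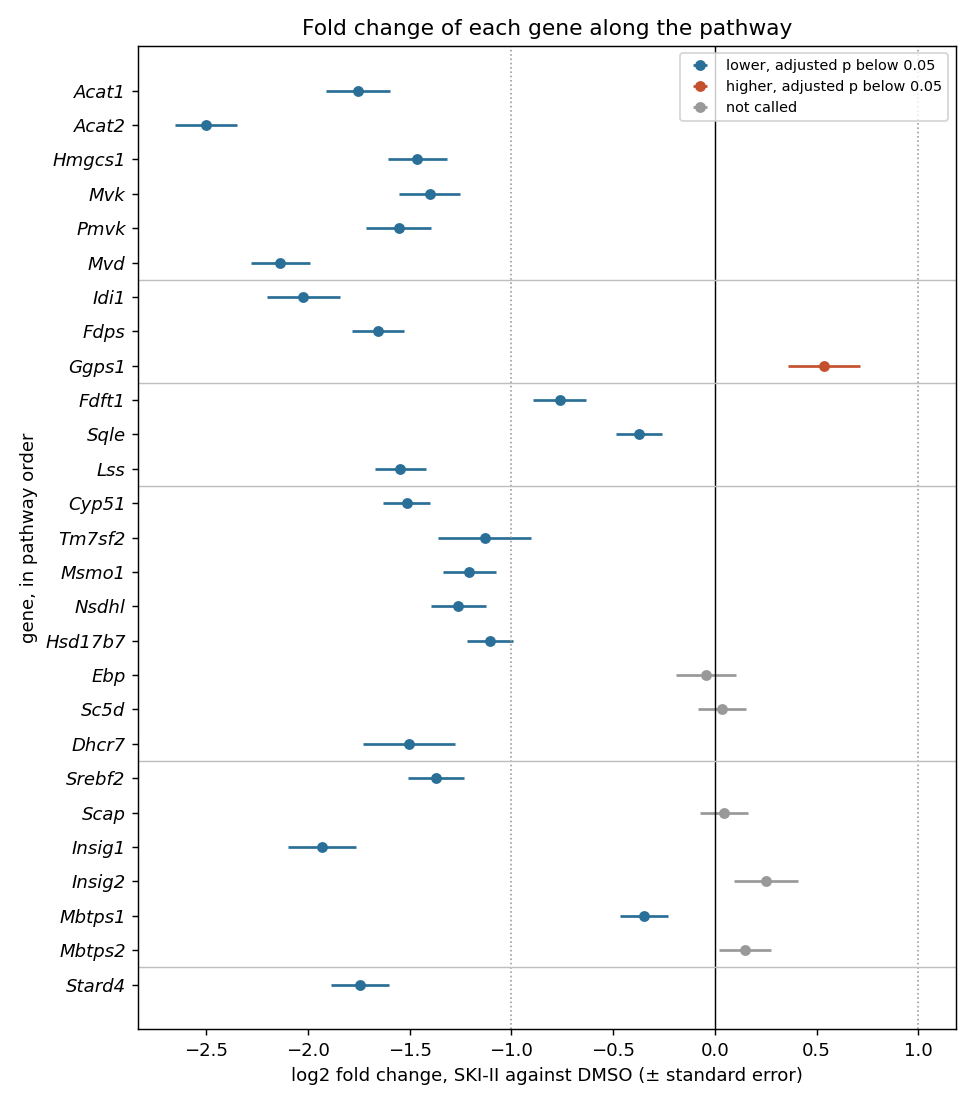
The log2 fold change of each gene in pathway order, SKI-II against DMSO, with its standard error (n = 3 per group); colors give the call and dotted lines mark -1 and 1. The mevalonate genes at the top lie between -1.40 and -2.50, and the SREBP machinery near the bottom is split between Insig1 and Srebf2 on the left and Scap, Insig2 and Mbtps2 near 0.

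At the branch where isoprenoids leave the pathway, 2 genes fell and 1 rose. Idi1, the isomerase that makes the reactive allylic form, had 429, 465 and 477 normalized counts with DMSO and 89.5, 115 and 132 with SKI-II, and Fdps, which builds farnesyl diphosphate, had 2944, 3166 and 3638 against 1142, 959.9 and 989.9. Neither gene showed overlap, and the log2 fold changes were -2.02 ± 0.179 and -1.66 ± 0.128 (SE, n = 3). Fdps shares 26.7% of its exon length with Gm43738 on the same strand, which was at 0 in every library. Ggps1, which extends farnesyl to geranylgeranyl diphosphate for protein prenylation, had 226, 298 and 337 normalized counts with DMSO against 405, 387 and 455 with SKI-II. It was the only one of the 27 genes to rise, 0.54 ± 0.177 on the log2 scale (SE, n = 3, edgeR adjusted p = 0.0371), and the groups did not overlap. The call did not hold when libraries were left out. It was lost without DMSO replicate 1 or 2 or without any single SKI-II replicate, with log2 fold changes of 0.37 to 0.59 and edgeR adjusted p of 0.0671 to 0.110, and it held without DMSO replicate 3. Ggps1 shares 5.44% of its exon length with Arid4b on the opposite strand, which was not called (-0.05 ± 0.130, edgeR adjusted p = 0.796). Per kilobase of exon, Ggps1 stood at 0.0685 to 0.0839 of the level of Fdps in the DMSO libraries and at 0.316 to 0.410 in the SKI-II libraries, a ratio looked at after the values were seen and therefore given without a test.

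The squalene steps showed the smallest falls of the enzyme groups, with a median log2 fold change of -0.76 and a summed level of 60.8% of that in DMSO. Fdft1, squalene synthase and the first step that commits to sterols, had 1405, 1581 and 1383 normalized counts with DMSO and 966, 772 and 838 with SKI-II. The groups were apart, and it fell by 0.76 on the log2 scale (SE 0.130, n = 3, edgeR adjusted p = 0.00153). Its exons share 774 bases, 18.3% of their length, with exons of the cathepsin gene Ctsb on the opposite strand, whose level went from 74791 ± 9634 to 40999.6 ± 6097 normalized counts with SKI-II (SD, n = 3) and also fell (-0.87 ± 0.182, edgeR adjusted p = 0.00464). The sources used here do not say whether reads were counted by strand, and the share of Ctsb reads in the Fdft1 value was not tested.

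Sqle, squalene epoxidase and a rate-limiting oxygen-dependent step, stayed closest to its DMSO level among the enzymes that fell. It had 3995, 3951 and 3831 normalized counts with DMSO against 3029, 2802 and 3274 with SKI-II, so the groups did not overlap although the fall was 1.29-fold (log2 fold change -0.37 ± 0.114 (SE, n = 3), edgeR adjusted p = 0.0273). The call was lost without DMSO replicate 2 (edgeR adjusted p = 0.0998), without SKI-II replicate 2 (0.122) and with no filter on low counts (0.0686). Lss, the cyclase that turns epoxysqualene into lanosterol, fell 2.92-fold, from 2239.8, 2586 and 2169 normalized counts to 877, 737 and 784. It showed no overlap between the groups (edgeR adjusted p = 2.56e-05). Per kilobase of exon, Sqle stood at 0.799 to 1.03 of the level of Fdps in DMSO and at 2.01 to 2.51 of it in SKI-II, which is again a description and not a test.

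Of the 8 genes that turn lanosterol into cholesterol, 6 fell, each with a log2 fold change below -1, and Ebp and Sc5d were not called. Their summed level was 48.8% of that in DMSO. Cyp51, the demethylase that acts first on lanosterol, had 1532, 1639 and 1498 normalized counts with DMSO and 531, 574 and 529 with SKI-II. The libraries of each group lay close together and the groups far apart (log2 fold change -1.51 ± 0.115 (SE, n = 3), edgeR adjusted p = 1.77e-05). Cyp51 shares 3.76% of its exon length with Akap9 on the opposite strand, which rose (0.72 ± 0.120, edgeR adjusted p = 0.0014). The genes of the complex that removes the methyl groups at carbon 4 fell by similar amounts, Msmo1 with a log2 fold change of -1.21 ± 0.129, Nsdhl with -1.26 ± 0.136 and Hsd17b7 with -1.10 ± 0.114 (SE, n = 3), and none of the 3 overlapped between groups.

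Tm7sf2, one of the enzymes that reduce the bond at carbon 14, was the least expressed of the 27 genes per kilobase. It had 162, 186 and 160.4 normalized counts with DMSO against 82.8, 58.2 and 90.4 with SKI-II. The groups were apart (log2 fold change -1.13 ± 0.229 (SE, n = 3), edgeR adjusted p = 0.00388), and without SKI-II replicate 2 its log2 fold change was -0.96. Tm7sf2 shares 12.1% of its exon length with Vps51 on the same strand, which also fell, from 974 ± 60.8 to 753 ± 30.1 normalized counts (SD, n = 3, -0.37 ± 0.118 on the log2 scale, edgeR adjusted p = 0.0315). Dhcr7, which makes cholesterol from 7-dehydrocholesterol, had 1446, 1678 and 2005 normalized counts with DMSO and 469, 487 and 849 with SKI-II. SKI-II replicate 3 stood above the other two but below every DMSO library (-1.50 ± 0.227 (SE, n = 3), edgeR adjusted p = 0.000846), and without it the log2 fold change was -1.84.

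The 2 late genes that were not called act next to each other, Ebp as the isomerase that moves the double bond of the sterol ring and Sc5d as the desaturase that follows it. Ebp had 542, 474 and 443 normalized counts with DMSO against 528, 442 and 447 with SKI-II. The groups lay over each other, with a log2 fold change of -0.043 ± 0.146 (SE, n = 3, edgeR adjusted p = 0.843). Sc5d had 779, 766 and 734 against 793, 807 and 734, also overlapping, with a log2 fold change of 0.035 ± 0.117 (SE, n = 3, edgeR adjusted p = 0.838). Their standard errors lay within the range of those of the late genes that fell, 0.114 to 0.229.

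In the SREBP machinery Srebf2, Insig1 and Mbtps1 fell, and Scap, Insig2 and Mbtps2 were not called. Srebf2, the gene of SREBP2, had the highest normalized count of the 27 genes. It had 9441, 10615 and 11515 in DMSO and 4265, 3580.2 and 4352 in SKI-II, with no overlap, and fell 2.59-fold (log2 fold change -1.37 ± 0.138 (SE, n = 3), edgeR adjusted p = 8.14e-05). Its promoter window held a CCAAT box and several GC boxes but neither form of the sterol element as searched here. Scap, the escort, had 1450.2, 1362 and 1336 normalized counts with DMSO and 1546, 1338 and 1396 with SKI-II, and these groups overlapped (0.045 ± 0.116 (SE, n = 3), edgeR adjusted p = 0.793). Per kilobase, Srebf2 stood at 6.75 to 8.93 times Scap in DMSO and at 2.77 to 3.23 times in SKI-II, as a description.

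The INSIG genes, whose proteins retain SCAP in the ER, differed from each other. Insig1, itself a classical SREBP target, had 1138, 1165 and 1386 normalized counts with DMSO against 395, 259.5 and 315 with SKI-II. The groups were far apart and the fall was 3.81-fold (log2 fold change -1.93 ± 0.168 (SE, n = 3), edgeR adjusted p = 3.77e-05). Insig2, which is less dependent on SREBP, had 421, 368 and 528 against 526, 513 and 530.4 normalized counts. DMSO replicate 3 reached the SKI-II libraries, so the groups overlapped (0.25 ± 0.158 (SE, n = 3), edgeR adjusted p = 0.237). Per kilobase of exon, Insig1 was 2.95 to 3.56 times as high as Insig2 in the DMSO libraries and 0.568 to 0.843 times as high in the SKI-II libraries, so the order of the pair turned over in every library. This ratio was also chosen after the values were seen and has no test.

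The proteases that release SREBP2, and that also cleave the ER stress sensor ATF6, differed little from DMSO. Mbtps1, the site-1 protease, had 2137, 2023 and 1961 normalized counts with DMSO and 1579.9, 1773 and 1461 with SKI-II. The groups did not overlap, and it fell by 0.35 on the log2 scale (SE 0.118, n = 3, edgeR adjusted p = 0.0421). This call lay at the threshold. It was lost with DESeq2 (adjusted p = 0.0520), with library size alone (edgeR, 0.0538), with no filter (edgeR, 0.0954) and without any single library other than SKI-II replicate 2 (edgeR, 0.0516 to 0.124). Mbtps2, the site-2 protease, had 1318, 1353 and 1219.9 normalized counts with DMSO against 1241, 1535 and 1535 with SKI-II, with overlap (0.15 ± 0.128 (SE, n = 3), edgeR adjusted p = 0.393). Its exons contain those of Yy2 on the same strand, which make up 28.4% of the Mbtps2 exon length. Yy2 was at 0 counts in every library, but it has no exon base of its own. The 0 therefore does not show Yy2 to be silent, and a loss of shared reads from the Mbtps2 count was not tested.

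Stard4, a soluble carrier that moves cholesterol between membranes and is induced by SREBP2, fell like the synthesis genes. It had 1084, 1267 and 1203 normalized counts with DMSO and 387, 299 and 376 with SKI-II. There was no overlap, and the fall was 3.35-fold (log2 fold change -1.74 ± 0.141 (SE, n = 3), edgeR adjusted p = 2.5e-05).

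Divided by exon length, the levels kept their top gene but changed their order. Srebf2 led in both conditions, with 1465 ± 145 normalized counts per kilobase in DMSO (SD, n = 3) and 566 ± 58.9 in SKI-II. In DMSO, Mvd (1188 ± 207) came next and differed from Srebf2 by less than the sum of their SDs, and so did Fdps (772 ± 84.2) from Sqle (708 ± 15.3). In SKI-II, Sqle (547 ± 42.6) was level with Srebf2 within that spread, and Mvd (270.4) with Fdps (245 ± 23.3). Ebp went from place 19 of 27 to place 5 at nearly the same level, 210.4 ± 22.0 and 205 ± 20.9 per kilobase. Acat2 went from place 7 to 24 and Insig1 from 6 to 18. Idi1 (32.0 ± 6.09) and Tm7sf2 (17.5 ± 3.83) were lowest in SKI-II. The lengths are those of all annotated exons joined, so a gene with long rarely used exons, such as Lss with 10787 bases, may be placed too low.

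**Figure D5:**
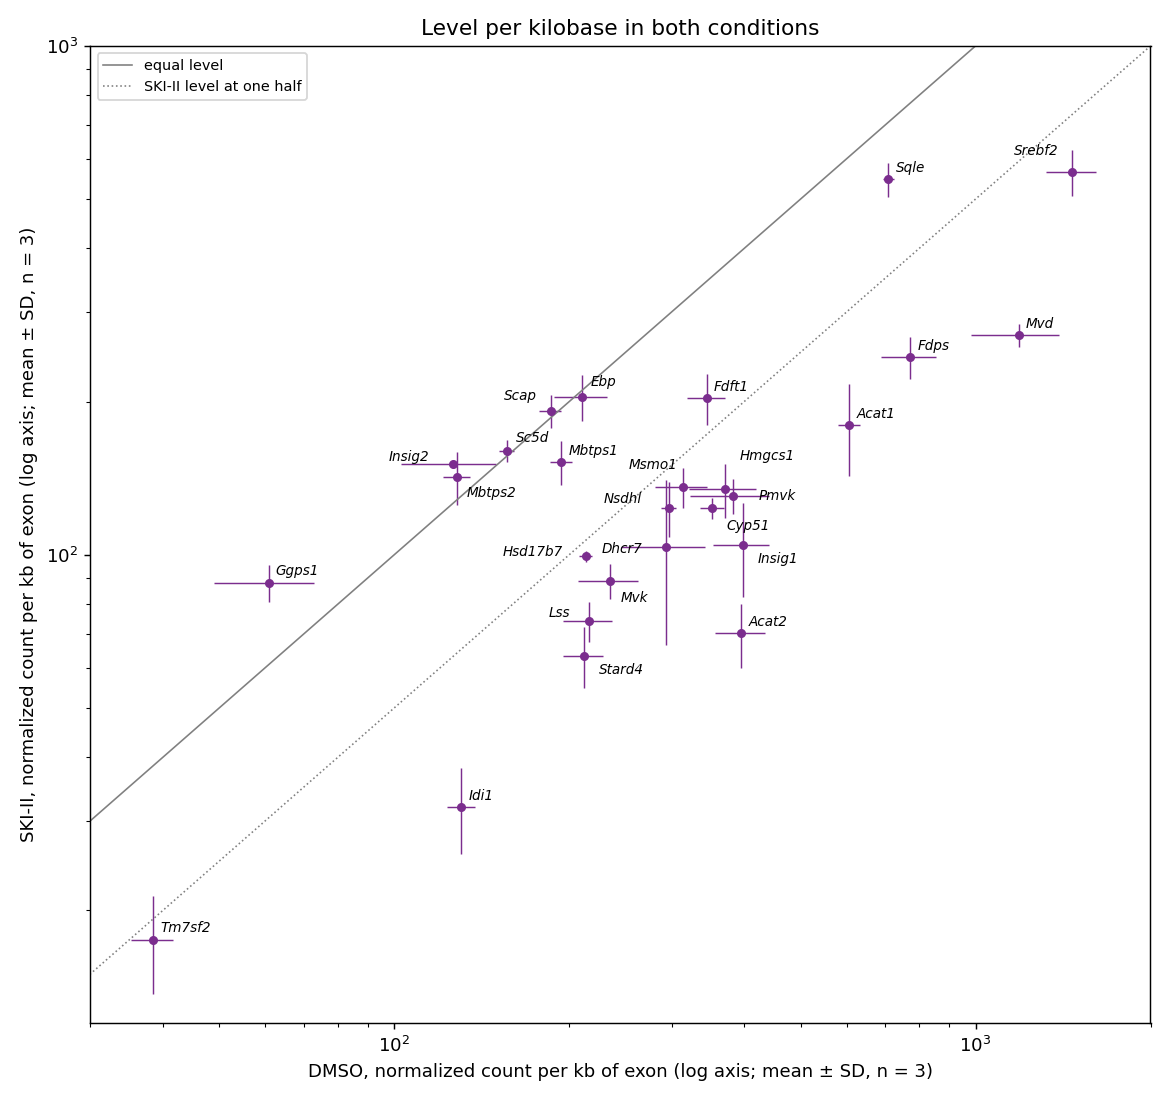
Level of each gene per kilobase of exon in DMSO (horizontal) and SKI-II (vertical), both on log axes, as the mean with its SD (n = 3). Srebf2 lies farthest to the right, Ebp, Sc5d, Scap, Insig2 and Mbtps2 lie near the line of equal level, Ggps1 lies above it, and most genes lie under the dotted line.

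Genes that use the products of the pathway were called about as often as genes in general. In a list of 18 genes of protein prenylation, dolichol synthesis and the side chains of ubiquinone and heme A, 3 rose, 3 fell and 12 were not called, with a median log2 fold change of 0.023. The shares that rose and fell, 16.7% each, lay near the 18.4% and 19.7% of all genes tested. Zmpste24, the protease that trims farnesylated prelamin A, rose from 1268, 1027 and 1100.1 to 1788, 1865 and 1562 normalized counts (0.62 ± 0.130 (SE, n = 3), edgeR adjusted p = 0.00466). Srd5a3, the reductase that makes dolichol, rose by 0.52 ± 0.135 (edgeR adjusted p = 0.0127). Among the called genes the largest falls were those of the farnesyltransferase subunits, Fntb with -0.55 ± 0.189 (edgeR adjusted p = 0.0428) and Fnta with -0.46 ± 0.130 (0.0199), neither with overlap. Without DMSO replicate 2 there was 1 rise and 1 fall, and without DMSO replicate 3 or SKI-II replicate 2 there was 1 fall.

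A list of 11 genes for sterol-linked degradation at the ER, where ubiquitin ligases and their partners feed membrane proteins to the ATPase VCP, had 6 rises and 1 fall, and 4 genes were not called. The median log2 fold change was 0.39, and 54.5% rose and 9.09% fell, against 18.4% and 19.7% of all genes tested. The 4 ligases had 1 rise and 1 fall with a median of -0.12, and the 7 partners had 5 rises with a median of 0.49. Erlin1, a scaffold of cholesterol-rich ER domains, had 921, 1207 and 1092 normalized counts with DMSO against 1999.5, 2155.5 and 1898 with SKI-II, with no overlap (0.91 ± 0.132 (SE, n = 3), edgeR adjusted p = 0.000639). March6, the ubiquitin ligase that takes squalene epoxidase for degradation, was the gene that fell (-0.33 ± 0.115 (SE, n = 3), edgeR adjusted p = 0.0441). Its call was lost with DESeq2, with no filter and without any single library other than DMSO replicate 1, and without DMSO replicate 2 there were 3 rises in the list.

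Of 17 listed genes for sterol transport inside the cell, 16 had enough reads, and 4 rose, 4 fell and 8 were not called, with a median log2 fold change of 0.14. These are 25% in each direction, against 18.4% that rose and 19.7% that fell among all genes tested. Osbpl2, a lipid exchanger at membrane contacts, rose the most, from 774, 1025 and 1198 to 2908, 2729 and 2647 normalized counts (1.47 ± 0.157 (SE, n = 3), edgeR adjusted p = 0.000113). All SKI-II libraries lay above all DMSO libraries. Gramd1b, which draws cholesterol from the plasma membrane to the ER, rose by 0.95 ± 0.122 (edgeR adjusted p = 0.000311). Npc2, which hands lysosomal cholesterol to NPC1, and Vapb, an ER anchor of such contacts, each fell by 0.68 on the log2 scale (edgeR adjusted p = 0.0142 and 0.00828).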

How the data were processed

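RNA-seq counts of 3 DMSO and 3 SKI-II libraries of RAW264.7 cells were analysed, grouped by the treatment and number in the sample labels. The libraries were made with an NEBNext Ultra II kit after oligo(dT) enrichment. The submitters' processing notes name Trimmomatic 0.36, STAR 2.5.2b, featureCounts, Subread 1.5.2 and DESeq2, and the authors deposited unnormalized read counts for each Ensembl gene. The genome build, annotation and use of strand in counting were not given in the sources used here. Values of overlapping genes are therefore uncertain. Besides the overlaps named above, Hmgcs1 (12.1% of its exon length), Idi1 (9.2%), Lss (3.53%) and Scap (13.2%) share exon bases with genes on the opposite strand.

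GENCODE M21 named 48970 of the 49315 identifiers and gave positions and exon lengths on GRCm38. Groups were compared in edgeR 4.0.16 (R 4.3.3) by its quasi-likelihood F test after TMM scaling. filterByExpr (minimum count 10, total 15) kept 12274 genes, over which p-values were adjusted by Benjamini-Hochberg. For normalized counts, each count was divided by the effective library size and multiplied by the mean effective size, 16042438. Standard errors come from the fitted weights and the moderated dispersion. Levels per kilobase divide by the joined exon length. Within a group, libraries differed by more than the sampling noise (chi-square per degree of freedom 15.4 to 58.1 over genes summing to 20 counts or more), and each was treated as 1 replicate. The programs were tested on simulated data. Figures were drawn with matplotlib 3.10.9.

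Every one of the 27 genes is named. From the other lists the 2 called genes with the largest change in each direction are named at most, and the highest marker of each cell type. The result of 1 gene that this rule selects is not reported here. The genes, lists, tests and alternatives were chosen with earlier results of these data known, so the lists are described by counts and medians and carry no test. The alternatives were DESeq2 1.42.0, limma-voom (limma 3.58.1), RLE scaling, library size alone, no filter, a minimum of 10 counts in all 6 libraries, omission of each library, the replicate number as a block, an adjusted p below 0.01, and, for promoters, the 150 bases before the start. Promoter windows of Acat1, Fdps, Fdft1, Sqle and Stard4 were not analysed here.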

Additional observations from a re-analysis of the deposited data

How the results depend on the processing

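With an edgeR adjusted p below 0.01, 1328 genes of the table rose and 1514 fell, and 19 of the 27 sterol genes fell and 0 rose. Ggps1, the 1 gene that rose at an adjusted p below 0.05, was also the 1 with a higher level at an unadjusted p below 0.05. At an adjusted p below 0.01 the isoprenoid list had 1 rise and 0 falls, ER degradation had 0 falls and sterol transport 2. The one fall in ER degradation became 0 with DESeq2 and with no filter. The isoprenoid falls numbered 5 with no filter. Leaving out each library in turn gave 0 to 1 rises among the 27 genes, 1 to 4 rises and 1 to 4 falls in the isoprenoid list, and 3 to 6 rises and 0 to 1 falls in ER degradation. With the replicate block, 2765 genes rose and 2819 fell, 21 of the 27 genes fell and the isoprenoid list had 5 falls. The deviations of same-numbered libraries from their group means had correlations of 0.246, 0.00994 and 0.458, and not every library correlated best with its own number, so the numbers were not taken to pair the samples. The fold change of Ebp ranged from -0.136 to 0.0273 on the log2 scale as each library was left out, changing sign when DMSO replicate 1 or SKI-II replicate 2 was omitted. That of Scap ranged from -0.0231 to 0.0913, changing sign when SKI-II replicate 1 was omitted. Beyond these and the calls of Ggps1, Sqle and Mbtps1 given above, the log2 fold changes of the 27 genes kept their direction and their side of the adjusted p threshold under the alternatives run, while Tm7sf2 passed above -1 without SKI-II replicate 2 (-0.96). Of the genes named outside the 27, Lyz2, Srd5a3, Fnta, Fntb, Npc2, Vps51 and March6 lost their calls at 0.01. In the 150 bases before the start, the longer sterol element was in 0.639% of all windows, the CCAAT box in 24.5% and the GC box in 28.6%, against 3.57%, 60.7% and 71.4% of those of the 27 genes. The shorter element, added after seeing the data, was there in 3.37% and 10.7%, and in the whole window in 6.24% and 10.7%. The causes of these differences were not tested. With 3 libraries a group, differences larger than their standard error also went uncalled, such as that of Insig2 (0.25 ± 0.158), so a gene without a call is not shown to be unchanged.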
